A study of Mus musculus with 10 samples.

Results

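The 10 genes described here encode mouse MHC class II molecules and the proteins that load them with peptide: H2-Aa, H2-Ab1, H2-Eb1, Cd74, Ciita, H2-DMa, H2-DMb1, H2-DMb2, H2-Oa and H2-Ob. They were found by symbol in a deposited table of 54532 genes, in which all 10 were present. Values came from RNA sequencing of primary peritoneal macrophages in 10 libraries. By their labels, young wild-type mice gave 4 libraries (A, B, C and E), aged wild-type mice gave 3 (3, 4 and 6), and aged mice of genotype Trem1-/- gave the last 3 (1, 2 and 3). The series asks how deletion of Trem1, a myeloid receptor that boosts inflammatory responses, acts on gene expression in aging. The labels give no strain, age in months, sex, batch, pooling, separate animals or cell sorting, and there was no young Trem1-/- group. Each p-value is therefore relative to the spread of these libraries, which may be technical.

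MHC class II molecules carry peptides from the endosomes to the cell surface, where CD4+ T cells read them. Each is a pair of an alpha and a beta chain that folds around the invariant chain, encoded by Cd74. After proteases trim the invariant chain, H2-DM exchanges its last fragment (CLIP) for other peptides, and H2-DO holds H2-DM back. Ciita is the coactivator that switches these genes on together through a conserved promoter module. B cells and dendritic cells express class II constantly, whereas macrophages raise it on stimulation, and H2-DO is known mainly from B cells. Here H2-Oa and H2-Ob, and with them H2-DMb2, were taken as the genes prominent in B cells, and H2-DMb1 and H2-DMa as DM subunits shared with macrophages.

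Recovered reads per library ran from 2663744 to 5603498, and a floor of 3 reads corresponded to 1.85 to 3.84 normalized counts. Trem1 (chr17:48232768-48246924, GRCm38) was read in all 10 libraries. It had 14.8, 8.0, 12.0 and 24.4 normalized counts in young replicates A, B, C and E, and 64.0, 15.3 and 27.0 in the aged wild-type libraries 3, 4 and 6. Libraries 1, 2 and 3 labelled Trem1-/- had 23.5, 106 and 13.8 (23, 132 and 12 reads), overlapping both other groups. Exact two-sided permutation tests gave p = 0.114 for aged against young wild type (smallest possible p = 0.0571), 0.9 for the libraries labelled Trem1-/- against aged wild type (smallest possible p = 0.1) and 0.286 against young wild type. Trem1 reads were thus present despite the labelled deletion, and the deposited values do not say which part of the gene they cover. The genotype could therefore not be checked from them. These 3 libraries are therefore called the libraries labelled Trem1-/-, and directions drawn from them rest on that label.

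The macrophage label was set against defining markers. All 18 markers of resident peritoneal macrophages were read, and their summed normalized counts ran from 54256 to 56503 in young wild type and from 18575 to 30145 in aged wild type. With the Trem1-/- label they ran from 54318 to 58699. All 21 B cell markers were also read in every library, with sums of 3671 to 7569, 18363 to 29483 and 8503 to 16725 in these 3 groups. The 16 markers of small peritoneal macrophages and dendritic cells summed to 1888 to 2648, 1094 to 1351 and 1188 to 2421, with at most 1 of them at 0 in a library. Aged wild type thus had lower resident macrophage sums and higher B cell sums than both other groups. The libraries labelled Trem1-/- had higher B cell sums than young wild type, while their resident macrophage sums overlapped. In bulk RNA, fewer cells of a type and less RNA per cell cannot be told apart.

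The class II genes other than Cd74 and Ciita (chr16:10480059-10528418) lie in 1 block of chromosome 17 on GRCm38. In order they are H2-Oa (34092340-34095234), H2-DMa (34119541-34139101), H2-DMb2 (34143307-34151555), H2-DMb1 (34153072-34160230), H2-Ob (34238903-34254414), H2-Ab1 (34257689-34269419), H2-Aa (34282744-34287823, minus strand) and H2-Eb1 (34305867-34316674). Their promoters show a feature that many of them share. The RefSeq promoter table (GRCm38.p6) matched 7 of the 10 genes, and each entry was searched on both strands over the 250 bases before the start for the Y box core ATTGG and the X box core AACNGATG. These are short cores of the module that NF-Y and RFX bind to bring in Ciita. Of 32851 promoters of that length, 33.85% held ATTGG, 1.985% held AACNGATG and 0.688% held both. H2-Eb1, H2-DMb1 and H2-DMb2 held both, with the first bases of the cores 30, 31 and 31 bases apart. The longer TGATTGG, which contains ATTGG and was chosen after the sequences were seen, was in 7.23% of all promoters and in 6 of the 7 genes, between 45 and 92 bases before the start. H2-DMa was the exception: of its 2 entries 1 held neither core and 1 held ATTGG 198 bases before the start.

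For 5 of these genes, 70 bases around the Y box follow, 5′ to 3′ along each gene, with the matched cores in capitals. They are H2-Aa (chr17:34287862-34287931, minus strand), H2-Eb1 (chr17:34305748-34305817), H2-DMb2 (chr17:34145099-34145168), H2-Oa (chr17:34092276-34092345) and H2-Ob (chr17:34238788-34238857), the last 4 on the plus strand. They were chosen to set classical chains beside the DM and DO genes whose levels differed most between groups. All lie outside GENCODE exons except the last 6 bases of the H2-Oa window, and the H2-DMb2 window lies inside the annotated span of that gene.
H2-Aa: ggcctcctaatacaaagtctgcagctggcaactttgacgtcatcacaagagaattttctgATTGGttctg
H2-Eb1: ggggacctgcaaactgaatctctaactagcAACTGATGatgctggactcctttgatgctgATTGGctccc
H2-DMb2: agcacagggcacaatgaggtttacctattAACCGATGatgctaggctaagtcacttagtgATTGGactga
H2-Oa: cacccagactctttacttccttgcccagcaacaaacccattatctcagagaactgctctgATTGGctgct
H2-Ob: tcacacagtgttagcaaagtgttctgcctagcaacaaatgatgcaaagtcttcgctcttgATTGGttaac
ATTGG began 48, 59, 90, 43 and 57 bases before the RefSeq start in these genes. H2-Eb1 and H2-DMb2 also carry the X core. The absence of the X letters from the other 3 windows says only that this spelling is not there. The Y core and its approximate distance from the start are common to genes whose expression differed between groups by very different amounts, as follows.

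The classical chains bind and present the peptide. H2-Aa, the alpha chain of the A molecule, had 1585, 1749, 1422 and 1162 normalized counts in young replicates A, B, C and E, and 3632, 2373 and 3424 in aged wild-type libraries 3, 4 and 6. Those labelled Trem1-/- (libraries 1, 2 and 3) had 2128, 1958 and 2574. Every aged wild-type library was above every young one, and the libraries labelled Trem1-/- lay between, overlapping the lowest aged wild-type library. H2-Aa rose by 1.08 ± 0.18 on the log2 scale (SE) from young to aged wild type (limma adjusted p = 0.00101). Young replicate E and aged replicate 4 were the lowest libraries of their groups, as for most of the 10 genes.

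H2-Ab1, the beta chain that pairs with H2-Aa, had 2623, 3026, 2393 and 1928 normalized counts in the young libraries, 4980, 2994 and 4550 in the aged wild-type libraries and 3100, 3131 and 3369 in those labelled Trem1-/-. Aged replicate 4 fell just below young replicate B, so the wild-type groups overlapped. The rise was 0.73 ± 0.18 (adjusted p = 0.0100), beside 1.08 for its partner. H2-Eb1, the beta chain of the E molecule, went from 1496 ± 237 (SD, n = 4) to 2926 ± 645 (n = 3), with 2103 ± 217 (n = 3) in the libraries labelled Trem1-/-. It rose by 0.96 ± 0.16 between the wild-type groups (adjusted p = 0.00128), which did not overlap.

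The balance of the 2 chains of the A molecule was nearly fixed in young libraries. Within a library, H2-Aa stood to H2-Ab1 at 0.578 to 0.604 in the young libraries, 0.729 to 0.793 in aged wild type and 0.625 to 0.764 with the Trem1-/- label. The wild-type ranges did not overlap. H2-Eb1 to H2-Ab1 ran from 0.569 to 0.652 and from 0.652 to 0.755 in young and aged wild type. These 2 ratios were described and not tested.

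The partner of H2-Eb1 is the E alpha chain, whose gene is broken by a deletion in several mouse strains. The table lists it as H2-Ea-ps (chr17:34341959-34344645, annotated as a polymorphic pseudogene). It had 0 reads in 9 libraries and 2 in aged wild-type replicate 6, all under the floor of 3 reads. Its neighbour H2-Eb2 (chr17:34325665-34341412), a second E beta gene, is expressed at low levels. It had 13.9, 16, 8.41 and 5.81 normalized counts in young libraries, 92.2, 50.2 and 76.4 in aged wild type and 17.4, 17.6 and 25.2 in those labelled Trem1-/-. H2-Eb2 was higher in every aged wild-type library than in any other library. It rose by 2.67 ± 0.35 from young to aged wild type (adjusted p = 0.000353), and was lower by 1.79 ± 0.37 in the libraries labelled Trem1-/- than in aged wild type (adjusted p = 0.00867).

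Cd74, the invariant chain, was the most abundant of the 10 genes per kilobase of exon in all 3 groups. It had 6647, 7266, 5945 and 4961 normalized counts in the young libraries, 13123, 9208 and 14695 in aged wild type and 8467, 8697 and 11191 in those labelled Trem1-/-. It rose by 0.98 ± 0.18 between the wild-type groups (adjusted p = 0.00217), which did not overlap. Relative to H2-Ab1, Cd74 stood at 2.40 to 2.57 in young and 2.64 to 3.23 in aged wild-type libraries.

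Ciita, the coactivator, had 275, 318, 240 and 174 normalized counts in young replicates A, B, C and E. The aged wild-type libraries had 658, 458 and 650, all above the young ones. Those labelled Trem1-/- had 405, 328 and 419, above every young and below every aged wild-type library. Ciita rose by 1.24 ± 0.20 from young to aged wild type (adjusted p = 0.000952). Between the libraries labelled Trem1-/- and aged wild type it differed by -0.60 ± 0.21 (adjusted p = 0.0675).

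H2-DM is a dimer of H2-DMa with H2-DMb1 or H2-DMb2. H2-DMa went from 231 ± 22.1 normalized counts in young to 356 ± 49.4 in aged wild type, a rise of 0.61 ± 0.13 (adjusted p = 0.00373) with no overlap, and stood at 279 ± 28.4 in the libraries labelled Trem1-/-. H2-DMb1 moved least. It had 179, 168, 143 and 143 in the young libraries, 248, 174 and 210 in aged wild type and 168, 143 and 165 in those labelled Trem1-/-. Aged replicate 4 lay inside the young range, and the rise of 0.40 ± 0.14 only just passed the threshold (adjusted p = 0.0485). That call was lost in 10 of 16 alternatives, with adjusted p up to 0.197.

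H2-DMb2 is the other DM beta chain. The young libraries had 246, 254, 192 and 158 normalized counts, the aged wild-type libraries 977, 546 and 882, and those labelled Trem1-/- 407, 338 and 492. All 3 groups were separate, with the libraries labelled Trem1-/- in the middle. H2-DMb2 rose by 1.89 ± 0.22 from young to aged wild type (adjusted p = 0.000251) and was lower by 0.93 ± 0.24 in the libraries labelled Trem1-/- than in aged wild type (adjusted p = 0.0212). Of the 50-base runs in the exons of H2-DMb1, 22.65% also occur in H2-DMb2. Of those of H2-DMb2, 25.9% also occur in another gene, and 21.19% occur in H2-DMb1. Reads from such stretches could be lost or split between the 2 genes. The level of each beta chain, and the ratio of H2-DMb2 to H2-DMb1 given below, are therefore less certain than for unique genes.

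H2-DO is the dimer of H2-Oa and H2-Ob that restrains H2-DM. H2-Ob had 187, 158, 135 and 76.7 normalized counts in young libraries, 814, 384 and 505 in aged wild type and 237, 201 and 260 in those labelled Trem1-/-. Again no group overlapped another. The rise of 2.03 ± 0.29 between the wild-type groups (adjusted p = 0.00059) was the largest of the 10 genes. H2-Ob was lower by 1.22 ± 0.31 in the libraries labelled Trem1-/- than in aged wild type (adjusted p = 0.0222). Its partner H2-Oa was the least expressed, with 15.7, 26.5, 32.4 and 8.14 in young, 85.8, 39.3 and 63.8 in aged wild type and 36.8, 12.0 and 43.6 in the libraries labelled Trem1-/-. As few as 7 reads lay behind a value (young replicate E). H2-Oa rose by 1.66 ± 0.51 (adjusted p = 0.0265), a call lost without young replicate A or E or aged replicate 3 or 6 (adjusted p up to 0.105). Exons of H2-Oa overlap BC051537, those of H2-DMa overlap Brd2 and those of Ciita overlap Dexi. Whether counting used strand is not given in the sources used here, so reads of such pairs may not be told apart.

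**Figure D1:**
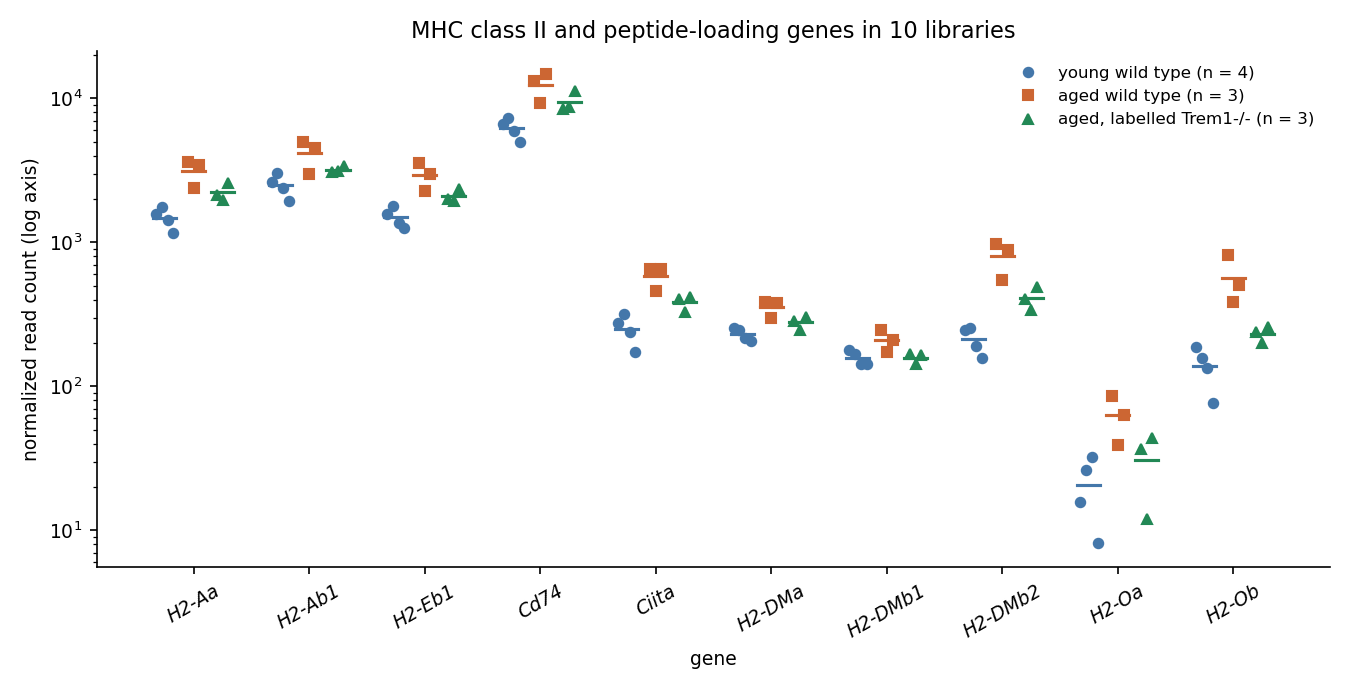
Normalized read counts (log axis) of the 10 genes in each library, with points for libraries and short lines for group means. For H2-DMb2 and H2-Ob the 3 groups are separate, while for H2-DMb1 the mean moves only from 158 to 211 and back to 158.

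Per kilobase of exon, Cd74 came first in young wild type at 3696 ± 589 (SD, n = 4) normalized counts per kilobase, followed by H2-Ab1 (971 ± 178), H2-Eb1 (770 ± 122) and H2-Aa (390 ± 65.9). H2-DMb2 (122 ± 26.1), H2-DMb1 (94.1 ± 10.8) and H2-DMa (67.1 ± 6.40) came next. Ciita (26.4 ± 6.36), H2-Ob (25.8 ± 8.66) and H2-Oa (14.7 ± 7.72) were lowest. Neighbours whose young ranges overlapped were H2-Ab1 with H2-Eb1, H2-DMb2 with H2-DMb1, Ciita with H2-Ob and H2-Ob with H2-Oa. In aged wild type H2-Ob had moved up to 106 ± 41.2 per kilobase, between H2-DMb1 (125 ± 22.2) and H2-DMa (103 ± 14.3), whose ranges it overlapped. H2-DMb2 (459 ± 130) no longer overlapped H2-DMb1 there. In the libraries labelled Trem1-/-, H2-DMb2 (236 ± 44.2) also stood clear of H2-DMb1 (94.3 ± 8.19), and H2-Ob (43.3 ± 5.55) overlapped only Ciita (40.3 ± 5.09).

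Of the 10 genes, all were called higher in aged than in young wild type (10 of 10), by limma with Benjamini-Hochberg adjustment over 11506 genes at 0.05. Of all genes tested, 14.3% were called higher. The members' log2 fold changes ran from 0.40 to 2.03 with a median of 1.03, beside -0.02 over all genes. For 8 of 10 every aged wild-type library exceeded every young one, against 18.4% of all genes. In the authors' deposited table of this comparison 9 of the 10 were called higher, beside 10.6% of genes with an adjusted p, and H2-DMb1 missed the threshold at an adjusted p of 0.0719.

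The libraries labelled Trem1-/- had a lower mean than aged wild type for 10 of 10 genes. Only H2-DMb2 and H2-Ob were called lower, against 6.82% of all genes. Ciita, H2-DMb1, H2-DMb2 and H2-Ob did not overlap between these groups, where 15.5% of all genes were lower without overlap. The median log2 difference was -0.47, beside 0.02 over all genes. This count depended on single libraries: it was 9 without aged wild-type replicate 4, and 0 without aged replicate 3, aged replicate 6, or library 1 or 2 labelled Trem1-/-. DESeq2 on recovered reads called 5 and edgeR 2.

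Against young wild type, the libraries labelled Trem1-/- had a higher mean for 10 of 10 genes. Their median log2 difference was 0.56, beside 0.01 over all genes. Limma called 0 of 10, where 0.591% of all genes were called higher. At an unadjusted p under 0.05 limma gave 6, and at an adjusted p under 0.05 edgeR called 0 and DESeq2 2. Even so 7 of 10 did not overlap, against 8.05% of all genes, the exceptions being H2-DMa, H2-DMb1 and H2-Oa. H2-DMb2 was nearest to a call at 0.96 ± 0.22 (adjusted p = 0.0644), and was called when aged wild-type replicate 3 or 4 was left out. H2-DMb1 had the smallest difference, 0.01 ± 0.14 (adjusted p = 0.992). The 3 comparisons share libraries pairwise, so their values are set side by side and are not independent of each other.

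**Figure D2:**
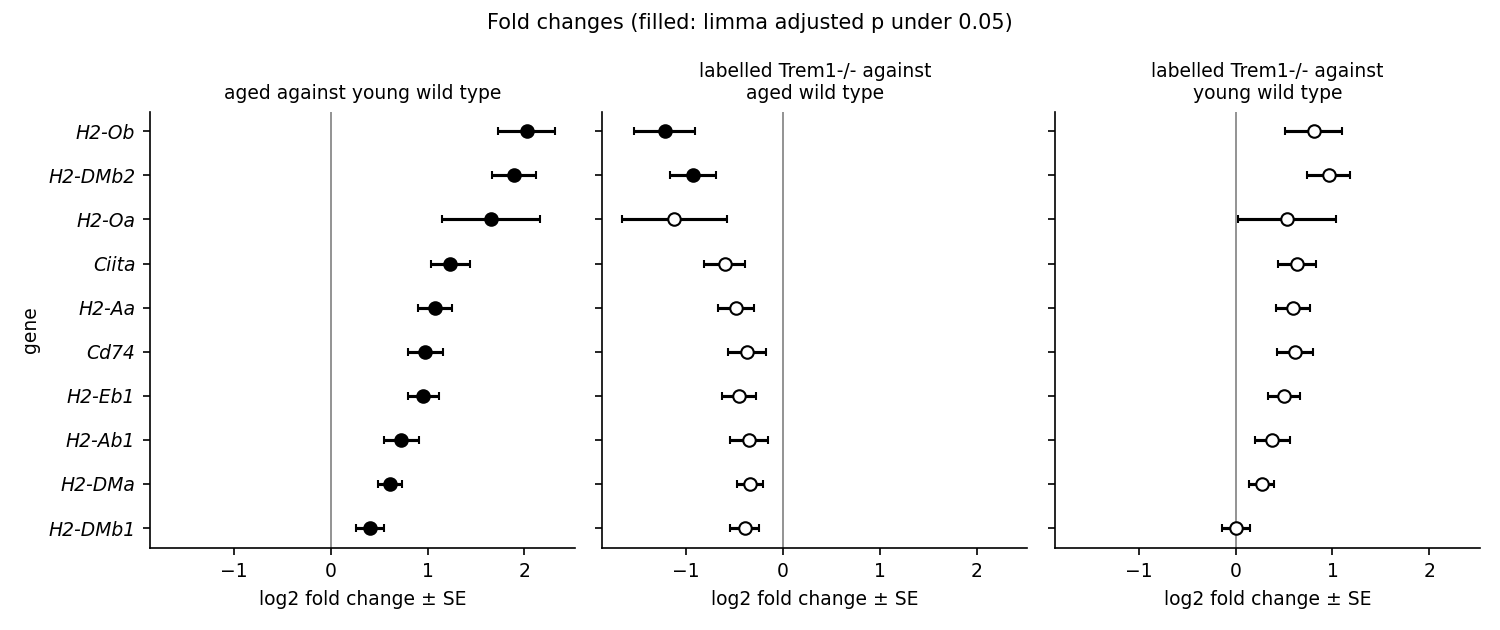
Log2 fold change ± SE of each gene in the 3 comparisons, filled where the limma adjusted p was under 0.05. All 10 points are filled for aged against young wild type, and only H2-Ob and H2-DMb2 for the libraries labelled Trem1-/- against aged wild type.

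The genes prominent in B cells were then set against DM subunits within each library. The plain ratio of normalized counts does not depend on library scaling. The log2 values were taken after adding 1 to each count, so for low genes such as H2-Oa they depend on it a little. H2-DMb2 to H2-DMb1 was 1.38, 1.51, 1.34 and 1.11 in young replicates A, B, C and E. The aged wild-type libraries 3, 4 and 6 had 3.93, 3.14 and 4.2, and those labelled Trem1-/- had 2.43, 2.37 and 2.98. No 2 groups overlapped. On the log2 scale the means were 0.41 ± 0.19 (SD, n = 4), 1.89 ± 0.22 (n = 3) and 1.36 ± 0.18 (n = 3). Exact two-sided permutation tests gave the smallest p each design allows, 0.0571 for both comparisons with young wild type and 0.1 for the libraries labelled Trem1-/- against aged wild type. Adjusted over 9 tests of 3 ratios these permutation values were 0.129, 0.129 and 0.147, so no design here could reach 0.05.

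H2-Ob to H2-DMb1 followed the same order. The ratio was 1.04, 0.938, 0.941 and 0.537 in young replicates A, B, C and E, 3.28, 2.21 and 2.40 in aged wild type and 1.41, 1.41 and 1.58 in the libraries labelled Trem1-/-. Groups were again separate, and the 3 permutation p-values and their adjusted values were the same smallest possible ones. H2-Oa to H2-DMa did not separate the groups. Its log2 means were -3.58 ± 0.80, -2.54 ± 0.37 and -3.32 ± 0.82. Exact permutation gave p = 0.114 (adjusted 0.147) for aged against young wild type, 0.2 (adjusted 0.225) for the libraries labelled Trem1-/- against aged wild type and 0.686 (adjusted 0.686) against young wild type.

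**Figure D3:**
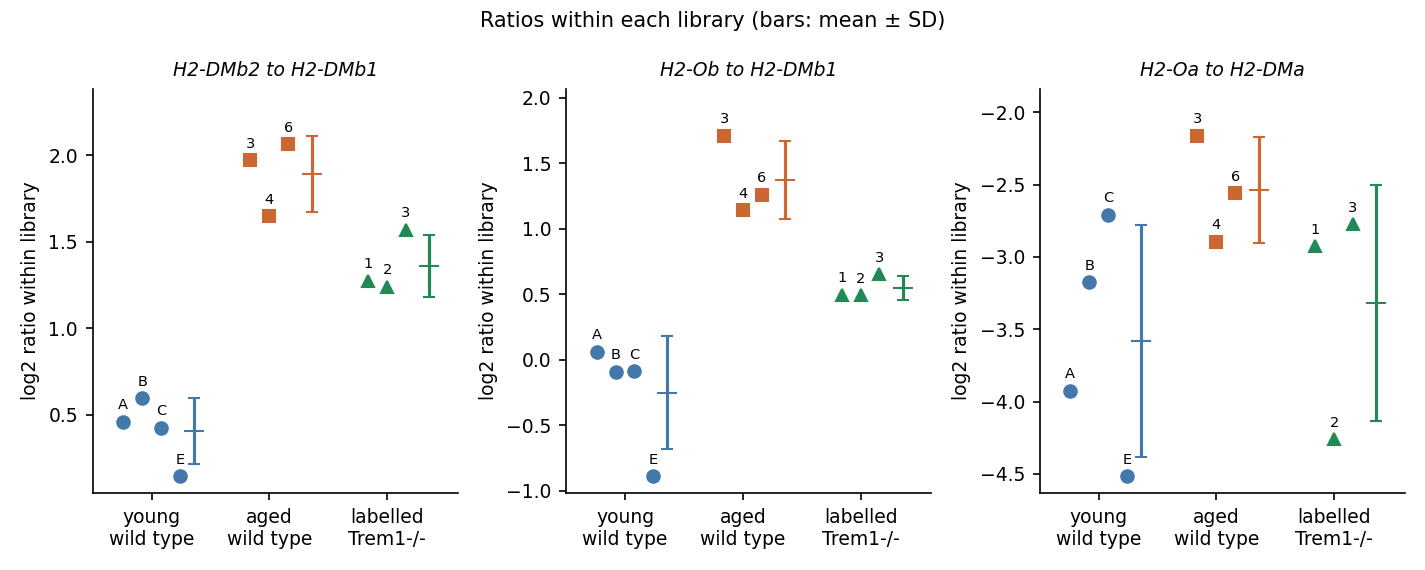
Log2 ratio of 2 genes within each library by group, labelled by replicate, with mean ± SD beside the points. The groups are separate for H2-DMb2 to H2-DMb1 and H2-Ob to H2-DMb1, and overlap for H2-Oa to H2-DMa.

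B cell markers were highest and lowest in much the same libraries as these genes. All 21 B cell markers rose from young to aged wild type, with a median log2 change of 2.10. Of the 21, 20 were called higher, where 14.3% of all genes were called higher. In the libraries labelled Trem1-/- 11 of 21 were called lower than in aged wild type (6.82% of all genes) and 3 of 21 higher than in young wild type (0.591% of all genes). The count of 11 was 3 to 7 without aged wild-type replicate 3 or 6 or library 1 or 2 labelled Trem1-/-, and 18 without young replicate E or aged replicate 4. The count of 3 was 0 to 5 when 1 library was left out. Ighm, the heavy chain of IgM, rose by 2.10 ± 0.29, and Ms4a1, which encodes CD20, by 2.17 ± 0.33. Ighd, the heavy chain of IgD, rose by 2.63 ± 0.29 and Fcmr, the IgM receptor, by 2.6 ± 0.48. The changes of H2-Ob (2.03) and H2-DMb2 (1.89) were close to that median, and the changes of H2-DMa (0.61) and H2-DMb1 (0.40) were far below it. Young replicate E, aged wild-type replicate 4 and library 2 labelled Trem1-/- had the lowest B cell sums of their groups, at 3671, 18363 and 8503. The same 3 libraries were lowest of their group for 9, 10 and 8 of the 10 genes. Library 3 labelled Trem1-/- and aged replicate 3 had the highest B cell sums of their groups, at 16725 and 29483, and were highest for 9 of the 10 genes each. Among the young libraries replicate B had the highest sum, at 7569, but was highest for only 6 of the 10 genes. Replicate A was highest for 3 and replicate C for 1.

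Divided by the B cell sum of its library, H2-Ob averaged 0.0224 in young wild type, 0.0224 in aged wild type and 0.0194 in the libraries labelled Trem1-/-. H2-DMb2 averaged 0.0355, 0.0318 and 0.0339. For both genes the group ranges overlapped, although the B cell sum itself was 6141, 24955 and 12566 on average. Ighm alone averaged 2152, 9072 and 5115 of these sums, so the sum follows Ighm more than any other marker. H2-Oa averaged 0.00326, 0.00247 and 0.00232. The remaining genes were not proportional to the sum: H2-Aa averaged 0.25, 0.126 and 0.185, Cd74 1.05, 0.497 and 0.790, and H2-DMb1 0.0273, 0.00855 and 0.0134. Ciita lay between, at 0.0417, 0.0238 and 0.0320. The part of B cell RNA, or of class II RNA of the macrophages themselves, in any of these differences was not tested.

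**Figure D4:**
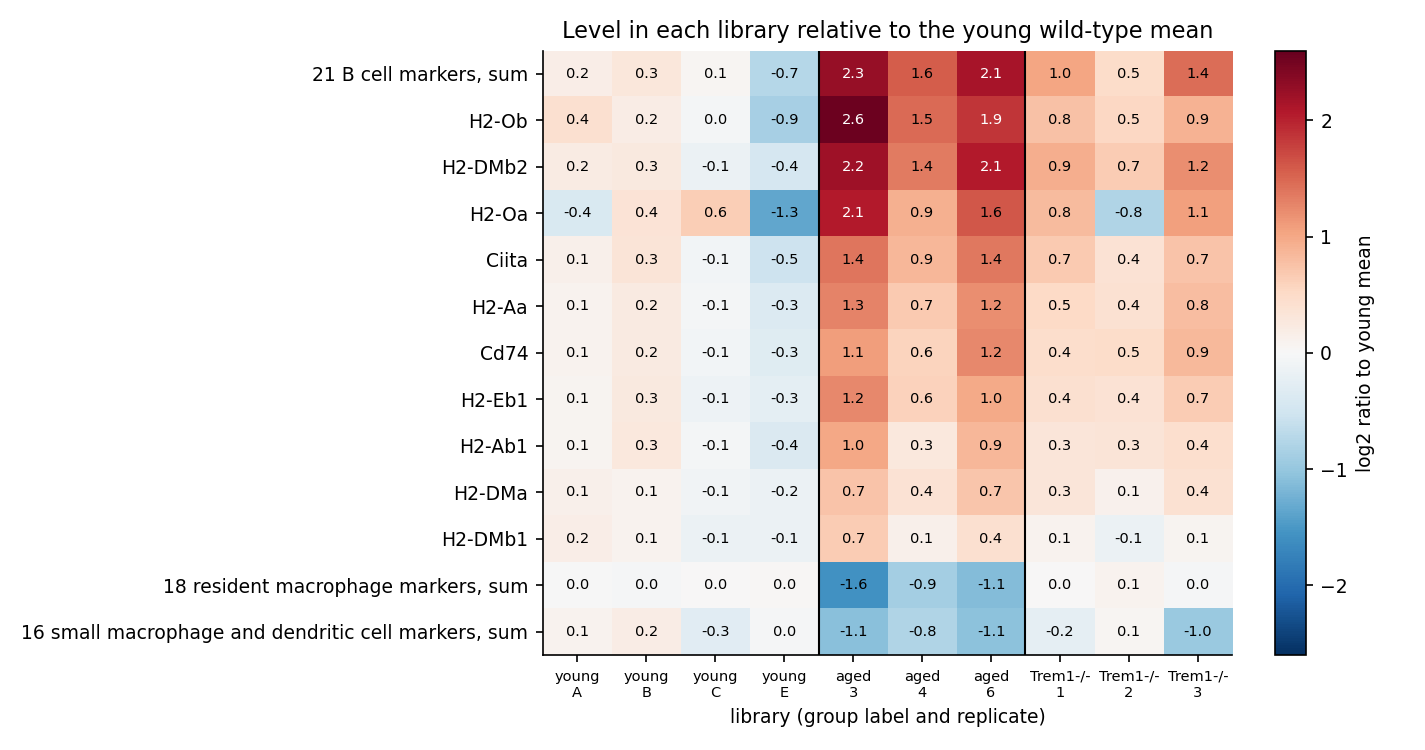
Log2 ratio of each library's level to the mean of the 4 young libraries, for the 10 genes and for the sums of 3 marker lists. In the 3 aged wild-type libraries H2-Ob (1.47 to 2.55) and H2-DMb2 (1.36 to 2.20) lie beside the B cell sum (1.58 to 2.26). H2-DMb1 stays between 0.13 and 0.65 there, and the resident macrophage sum is below 0 in every aged wild-type library.

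Macrophage markers moved the other way between the wild-type groups. Of the 18 resident macrophage markers 14 were called lower in aged than in young wild type, where 19% of all genes were called lower. Only 1 of 18 was called higher, no larger a share than the 14.3% of all genes called higher. F5, coagulation factor V, fell by 1.61 ± 0.19, and Gata6, the transcription factor of resident peritoneal macrophages, by 1.59 ± 0.23. Cxcl13, a chemokine that attracts B cells, rose by 1.22 ± 0.36. With the Trem1-/- label 13 of 18 were called higher than in aged wild type, where 11.5% of all genes were called higher. Against young wild type only Cxcl13 of the 18 was called, higher by 2.40 ± 0.36, where 0.591% of all genes were called higher.

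Small macrophages and dendritic cells also present antigen. Of their 13 tested markers 9 were called lower and 1 higher in aged than in young wild type, against 19% and 14.3% of all genes. Mgl2, a lectin of these cells, fell by 2.56 ± 0.57, and Ccr2, the receptor for monocyte chemokines, by 1.19 ± 0.14. Ccr7, the homing receptor of migrating dendritic cells and of lymphocytes, rose by 1.67 ± 0.34. In the libraries labelled Trem1-/- 3 of 13 were called higher than in aged wild type, where 11.5% of all genes were called higher, and the median log2 difference of the 13 was 0.94. That count was 0 to 6 when 1 library was left out. Against young wild type only Ccr2 of the 13 was called, lower by 0.81 ± 0.14, where 0.33% of all genes were called lower. The mean summed level of these markers was lowest in the group in which the 10 class II genes were highest. Retnla alone averaged 1069 of the mean sum of 2321 in young wild type, so the sum mostly follows the abundant genes of the list. The part of small macrophages or dendritic cells in the class II values was not tested.

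Of 8 tested T and NK cell markers 7 were called higher in aged than in young wild type (14.3% of all genes), among them Cd8a, the CD8 coreceptor, by 3.04 ± 0.47. With the Trem1-/- label 5 of 8 were called lower than in aged wild type (6.82% of all genes), among them Lck, the T cell receptor kinase, by 2.54 ± 0.37. That count was 3 without aged replicate 3 or 6 and 8 without young replicate C. Of 6 mesothelial and fibroblast markers only Krt18, a keratin, was called, rising by 5.20 ± 0.78 from young to aged wild type, and 1 of 6 is near the 14.3% of all genes. Limma called 0 of 6 mast cell markers in that comparison, with 2 at an unadjusted p under 0.05 and 0 by edgeR and DESeq2. Their summed levels were 45.3 to 1195, 869 to 1979 and 121 to 1517 in the 3 groups. The part of these cells in the class II values was not tested.

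Of 13 tested transcription factors listed around Ciita, 1 was called higher and 1 lower in aged than in young wild type. Of all genes, 14.3% were called higher and 19% lower. At an unadjusted p under 0.05 limma gave 4 of 13 higher, and at an adjusted p under 0.05 edgeR called 3 higher and DESeq2 4. Prdm1, a repressor of Ciita in plasma cells, rose by 3.01 ± 0.36, from 11.9 to 114 normalized counts. Spi1, which encodes PU.1, fell by 0.66 ± 0.12. Set against aged wild type, 2 of 13 were called higher with the Trem1-/- label, near the 11.5% of all genes, Spi1 by 0.65 ± 0.13 and Creb1, a factor that binds the class II promoter module, by 0.46 ± 0.14. Irf8, a regulator of myeloid and B cells, was lower by 0.54 ± 0.17 and only just passed the threshold (limma adjusted p = 0.0457). It was the 1 of 13 called lower, near the 6.82% of all genes. Against young wild type only Prdm1 was called, higher by 2.77 ± 0.36 (0.591% of all genes were called higher).

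Most genes that supply class II peptides were called lower in aged wild type. Of 8 tested, 6 were called lower and 1 higher in aged than in young wild type, against 19% and 14.3% of all genes. Lgmn, an asparagine endopeptidase of the endosomes, fell by 1.06 ± 0.18, and Ctsd, cathepsin D, by 0.94 ± 0.24. Cathepsin S (Ctss), which cuts the invariant chain down to CLIP, fell by 0.71 ± 0.10 and Ctsb, cathepsin B, by 0.84 ± 0.22. Cd83, which stabilizes class II on activated cells, rose by 2.57 ± 0.45. Set against aged wild type, 5 of 8 were called higher with the Trem1-/- label (11.5% of all genes), among them Ctsd by 1.23 ± 0.26 and Ctss by 0.70 ± 0.11. Over the alternatives that count of 5 ran from 2 to 6, with 3 by edgeR and 4 by DESeq2. In this bulk RNA the transcripts of the invariant chain (Cd74) and of Ctss changed in opposite directions between the wild-type groups. Whether both changed within the same cells was not tested.

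Of 13 tested class I presentation genes, 5 were called higher in aged than in young wild type, where 14.3% of all genes were called higher. The median log2 change of the 13 was -0.04. Another 2 of 13 were called lower, no larger a share than the 19% of all genes called lower. Nlrc5, the class I counterpart of Ciita, rose by 1.08 ± 0.18 and Psmb9, an immunoproteasome subunit, by 1.08 ± 0.19. Pdia3 and Calr, chaperones of the peptide-loading complex, fell by 0.91 ± 0.18 and 0.74 ± 0.15. In the libraries labelled Trem1-/- 5 of 13 were called higher and 4 lower than in aged wild type (11.5% and 6.82% of all genes). Nlrc5 was lower by 0.92 ± 0.20 and Pdia3 higher by 0.84 ± 0.19. Over the alternatives the count of 5 ran from 3 to 5 and the count of 4 from 1 to 5. B2m, the light chain of class I, was the only 1 of 13 called against young wild type. It was higher by 0.50 ± 0.09, where 0.591% of all genes were called higher.

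Over the 10 libraries, the 5 tested genes whose log2 levels were most like those of H2-Aa by Pearson correlation included 2 of the class II set. H2-DMb2 (r = 0.992, and 0.987 for deviations from the group means) and H2-Eb1 (0.991 and 0.959) led, followed by Gpr137b-ps (0.991 and 0.973), Sipa1l1 (0.991 and 0.962) and Ets1 (0.989 and 0.945). The 5 nearest to H2-Ob were Card6 (0.992 and 0.966), Hip1r (0.992 and 0.964), Plcd3 (0.99 and 0.967), N4bp2 (0.988 and 0.954) and Setbp1 (0.988 and 0.944). All points share their library's cell makeup and depth, so these are descriptions of likeness over 10 libraries in 3 groups.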

How the data were processed

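RNA sequencing of peritoneal macrophages was analysed from 1 deposited table. The submitters' processing notes name fastp, STAR, featureCounts 1.5.0-p3, DESeq2 1.20.0 and the build GRCm38. Their order, parameters, strand setting and annotation are not given in the sources used. The authors deposited normalized counts per library and their mean (a signal), and, for aged against young wild type, a log2 fold change, a Wald score, and p-values raw and adjusted, per the file headers. Values were whole multiples of a library's unit (100% within 1e-06), which gave back the reads.

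Limma-trend (limma 3.58.1, R 4.3.3) was fitted to log2(normalized count + 1) of all 10 libraries in 3 groups, for the 11506 genes averaging 10 or more normalized counts, with Benjamini-Hochberg adjustment at 0.05. On this log2(value + 1) scale, changes of low genes are understated. Ratios within libraries and Trem1 were compared by exact permutation tests. Alternatives were a pseudocount of 5, no filter, TMM rescaling, edgeR 4.0.16 and DESeq2 1.42.0 on recovered reads, only the 2 groups compared, and leaving out each library. Scripts were tested on simulated data.

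Members and gene lists were chosen with earlier results of these data known. Beside the 10 genes, the rule for naming took from each list the 2 largest called rises, the 2 largest called falls and the 3 highest means, of which examples are printed. Coordinates and exon lengths are from GENCODE M21 and promoters from RefSeq (GRCm38.p6). The floor of 3 reads covers only counting error, because copies of 1 molecule may be counted as separate reads.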

Additional observations from a re-analysis of the deposited data

Results flagged for a closer look

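In young wild type, the log2 ratio of H2-Ob to H2-DMb1 was -0.09 or above in replicates A, B and C (0.06, -0.09 and -0.09) and -0.89 in replicate E. The gap of replicate E to its nearest neighbour was 0.838 of the whole range of the 4 libraries, above Dixon's 95% critical value for 4 samples. It was the only one of 13 young wild-type values examined this way (10 genes and 3 ratios) to pass. Chance marks about 1 in 20 such groups, so 1 of 13 is not unusual. Replicate E also had the lowest B cell marker sum of the young libraries, 3671 against 6380 to 7569 in the other replicates. Without replicate E the difference of aged from young wild type in this log2 ratio was 1.41, and with all libraries 1.62.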

How the results depend on the processing

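No paired analysis was possible because the groups share at most 1 replicate number. In aged against young wild type the 16 alternatives called 8 to 10 of the 10 genes higher. In the libraries labelled Trem1-/- against aged wild type, 2 genes were called lower, but 5 by DESeq2, and 0 to 9 when 1 library was left out. Against young wild type 0 were called higher, but 1 without the filter, 2 by DESeq2, 1 with only the 2 groups, and 0 to 1 when 1 library was left out. In that comparison H2-DMb1 changed sign with edgeR (-0.00994), DESeq2 (-0.00890) and the omission of 1 library (-0.0402 to 0.0795), and the log2 ratio of H2-Oa to H2-DMa, 0.26 with all libraries, was -0.0493 to 0.732 when 1 library was left out, below 0 without young replicate E or library 3 labelled Trem1-/-. The cause was not tested.

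Counts over all genes ran from 726 to 1785 higher (1327 with all libraries) and from 315 to 1029 lower (785) in the libraries labelled Trem1-/- against aged wild type, and from 0 to 253 higher (68) and 0 to 195 lower (38) against young wild type. B cell markers called lower than in aged wild type ranged from 3 to 19 (11), those called higher than in young wild type from 0 to 8 (3), and small macrophage and dendritic cell markers called higher than in aged wild type from 0 to 7 (3). Of 960 list counts 114 moved by over 1.5 times. Of 1264 values of named genes outside the 10, 132 lost their call and 0 changed sign. Without the filter the median over all genes was 0.20 in aged against young wild type and -0.27 in the libraries labelled Trem1-/- against aged wild type. H2-Oa is limited by depth, with 7 to 71 reads a library.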
